A study of Mus musculus with 2 samples.

Results

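The simple epithelial keratins Krt7, Krt8, Krt18, Krt19 and Krt20 were taken by gene symbol, which gave 5 of the 32285 genes counted. They were followed by scRNAseq in a control and an ischemic kidney, 1 library each, from wildtype C57BL/6J males aged 19 weeks. The control kidney was the uninjured contralateral organ, and the ischemic kidney, whose library is called I/R below, underwent 27 min of ischemia and 24 h of reperfusion. Both groups were wildtype and carried no transgene or drug treatment in the labels. The kidneys were digested with enzymes, and cells were captured with the 10X 3′ chemistry, so that each RNA molecule caught is counted once by its unique molecular identifier (UMI). With 1 library per condition no test between the conditions was possible, so every interval below is a 95% interval of counting error alone and contains no variation between animals.

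Keratins are the intermediate filament proteins of epithelial cells. A type II keratin pairs with a type I keratin to build the filament, and in single-layered epithelia such as the kidney tubule the basic pair is Krt8 (type II) with Krt18 (type I). Krt7 is a further type II keratin, best known from ducts, while Krt19 and Krt20 are type I keratins, the former common in ducts and urothelium and the latter known from intestine and the umbrella cells of the urothelium. Keratin filaments help epithelial cells to resist mechanical and other stress, and keratins are often raised in injured epithelium.

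In the GENCODE M21 annotation of GRCm38, the type II genes lie on chromosome 15 together with Krt18. Krt7 (ENSMUSG00000023039) spans chr15:101411043-101430313 on the plus strand, Krt8 (ENSMUSG00000049382) chr15:101996698-102004482 on the minus strand, and Krt18 (ENSMUSG00000023043) chr15:102028180-102032027 on the plus strand. Krt8 and Krt18 thus point away from each other with 23697 bases between them. The other type I genes lie on chromosome 11, with Krt19 (ENSMUSG00000020911) at chr11:100140810-100148665 and Krt20 (ENSMUSG00000035775) at chr11:99428403-99438150, both on the minus strand and 702659 bases apart.

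The 250 bases before the RefSeq start site (GRCm38.p6) are shown for the 4 members found in the RefSeq promoter table, because the pair Krt8 and Krt18 and the single genes Krt7 and Krt20 followed different patterns across cell types below. Each is printed 5′ to 3′ on the strand of its gene, in lower case, with motif matches in capitals. Krt7 is chr15:101412153-101412402, Krt8 is chr15:102004343-102004592, Krt18 is chr15:102027966-102028215 and Krt20 is chr11:99438154-99438403. The RefSeq start sites differ from the GENCODE spans given above. The Krt7 window lies inside its GENCODE span, and the Krt8 and Krt18 windows partly overlap theirs.
Krt7: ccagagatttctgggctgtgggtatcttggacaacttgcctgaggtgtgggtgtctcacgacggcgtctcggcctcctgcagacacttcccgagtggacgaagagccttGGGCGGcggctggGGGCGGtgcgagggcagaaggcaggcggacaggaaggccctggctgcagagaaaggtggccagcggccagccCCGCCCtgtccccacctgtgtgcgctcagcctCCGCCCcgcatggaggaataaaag
Krt8: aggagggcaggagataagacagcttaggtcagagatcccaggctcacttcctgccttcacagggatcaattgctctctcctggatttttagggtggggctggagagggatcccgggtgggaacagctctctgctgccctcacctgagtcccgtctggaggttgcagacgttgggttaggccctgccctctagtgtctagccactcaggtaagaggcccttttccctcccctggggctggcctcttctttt
Krt18: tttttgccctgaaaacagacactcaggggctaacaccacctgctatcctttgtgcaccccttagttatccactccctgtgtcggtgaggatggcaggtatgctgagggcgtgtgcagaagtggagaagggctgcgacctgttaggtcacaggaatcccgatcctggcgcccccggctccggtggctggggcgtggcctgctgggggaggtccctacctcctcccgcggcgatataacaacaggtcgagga
Krt20: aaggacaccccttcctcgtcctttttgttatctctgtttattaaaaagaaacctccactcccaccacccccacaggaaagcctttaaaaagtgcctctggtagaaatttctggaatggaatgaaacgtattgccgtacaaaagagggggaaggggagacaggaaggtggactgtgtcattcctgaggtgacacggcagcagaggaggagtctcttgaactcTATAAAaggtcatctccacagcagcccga
On both strands of these windows, 4 motifs were searched: AP-1 (TGANTCA), the GC box (GGGCGG), the TATA box (TATAAA) and a STAT motif (TTCNNNGAA). They occur in 6.75%, 32.7%, 12.4% and 7.02% of the 32851 promoters of this length in the table. Krt7 held 4 GC boxes, starting 141 and 128 bases before the start site on the strand of the gene and 56 and 24 bases before it on the other. Krt20 held a TATA box 29 bases before its start site. None of the 4 motifs was found in the Krt8 or Krt18 window, no matches overlapped, and the letters alone do not show whether a factor binds. The GC content was 66% for Krt7, 60.4% for Krt18, 58% for Krt8 and 48% for Krt20, against a median of 52.4% over all promoters.

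Of 15110 control and 15257 ischemia barcodes, 12586 and 13116 were kept, being those with 200 genes or more, between 500 and 150000 UMIs and no more than 55% mitochondrial UMIs. The kept cells held 124679362 and 128733541 UMIs, with medians of 3839 and 2138.5 per cell, and 58 barcodes were found among the kept cells of both libraries. Clusters named from marker genes gave 13 populations, called X-like here, and 2 clusters stayed unnamed, of which unnamed cluster 0 held 4599 control and 5878 ischemia cells at a median of 837 UMIs. The populations used most are proximal tubule (PT-like, 3887 control and 2797 ischemia cells), thin limb (88 and 79), thick ascending limb (TAL-like, 495 and 490), distal convoluted and connecting tubule (DCT-CNT-like, 460 and 352), collecting duct principal cells (CD-PC-like, 449 and 391) and intercalated cells (IC-like, 58 and 45). The CD-PC-like cluster is not pure: Aqp6, a gene of type A intercalated cells, was among its leading genes. The IC-like cluster was led by Slc26a4, and Aqp6 was not among its leading genes. A finer clustering, run as an alternative, gave a further intercalated cluster led by Aqp6, with 95 control and 85 ischemia cells. IC-like values below are therefore those of the 58 and 45 cells named here and not of all intercalated cells. Endothelial cells (EC-like, 906 and 1044 cells), which should lack keratins, served as the measure of free RNA carried into every droplet.

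Levels are given as CPM (counts scaled to the same total of UMIs), for which the UMIs of a gene were summed over the cells of a population and divided by all UMIs of these cells. As the chemistry counts 3′ ends, 1 UMI stands for 1 molecule whatever the length of the gene. The number of cells and the RNA per cell do not enter a CPM, and cells lost from a kidney cannot be told apart from cells that entered another cluster. A gene was called higher in the I/R library where its ratio of ischemia to control CPM was at least 2 with an interval above 1, and lower where it was at most 0.5 with an interval below 1. Only genes with at least 50 UMIs over both libraries in a population were called. Pairs of values are given with the control library before the I/R library. The injury gene Havcr1, which encodes the kidney injury molecule KIM-1, went from 7.14 to 417 CPM in PT-like cells.

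Among the 5 populations from PT-like to CD-PC-like, 12 of 19 pairs of member and population were called higher. None of them was called lower, as were 3.83% of all genes tested in PT-like cells, 7.04% in the thin limb, 7.53% in TAL-like, 4.98% in DCT-CNT-like and 4.47% in CD-PC-like cells. In PT-like cells 3 of 4 keratins with enough UMIs were called higher (Krt8, Krt18 and Krt20), where 6.99% of all genes tested were. In TAL-like cells it was 3 of 4 (Krt8, Krt18 and Krt19) against 7.86% of genes, and in CD-PC-like cells 3 of 4 (Krt8, Krt18 and Krt19) against 5.77%. DCT-CNT-like cells had 2 of 3 (Krt8 and Krt18) against 6.42%, and the thin limb had 1 of 4 (Krt8) against 4.39%. In IC-like cells 1 of 3 was called higher (Krt8), against 5.73% of genes, and in EC-like cells 1 of 3 (Krt8), against 1.94%. Krt8 and Krt18 were also called higher in pericyte-like cells (ratios 2.499 and 3.14), against 2.16% of genes. The same held in macrophage-like cells (2.156 and 2.353), against 5.42%, and Krt7 was called in neither. In pericyte-like cells of the I/R library, 5 cells held 60% of the Krt18 UMIs. Calls were thus not confined to tubule populations. The median log2 ratio of all genes was 0.12 in PT-like, 0.10 in TAL-like, 0.08 in DCT-CNT-like and -0.01 in CD-PC-like cells, far below the fold of 2.

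**Figure D1:**
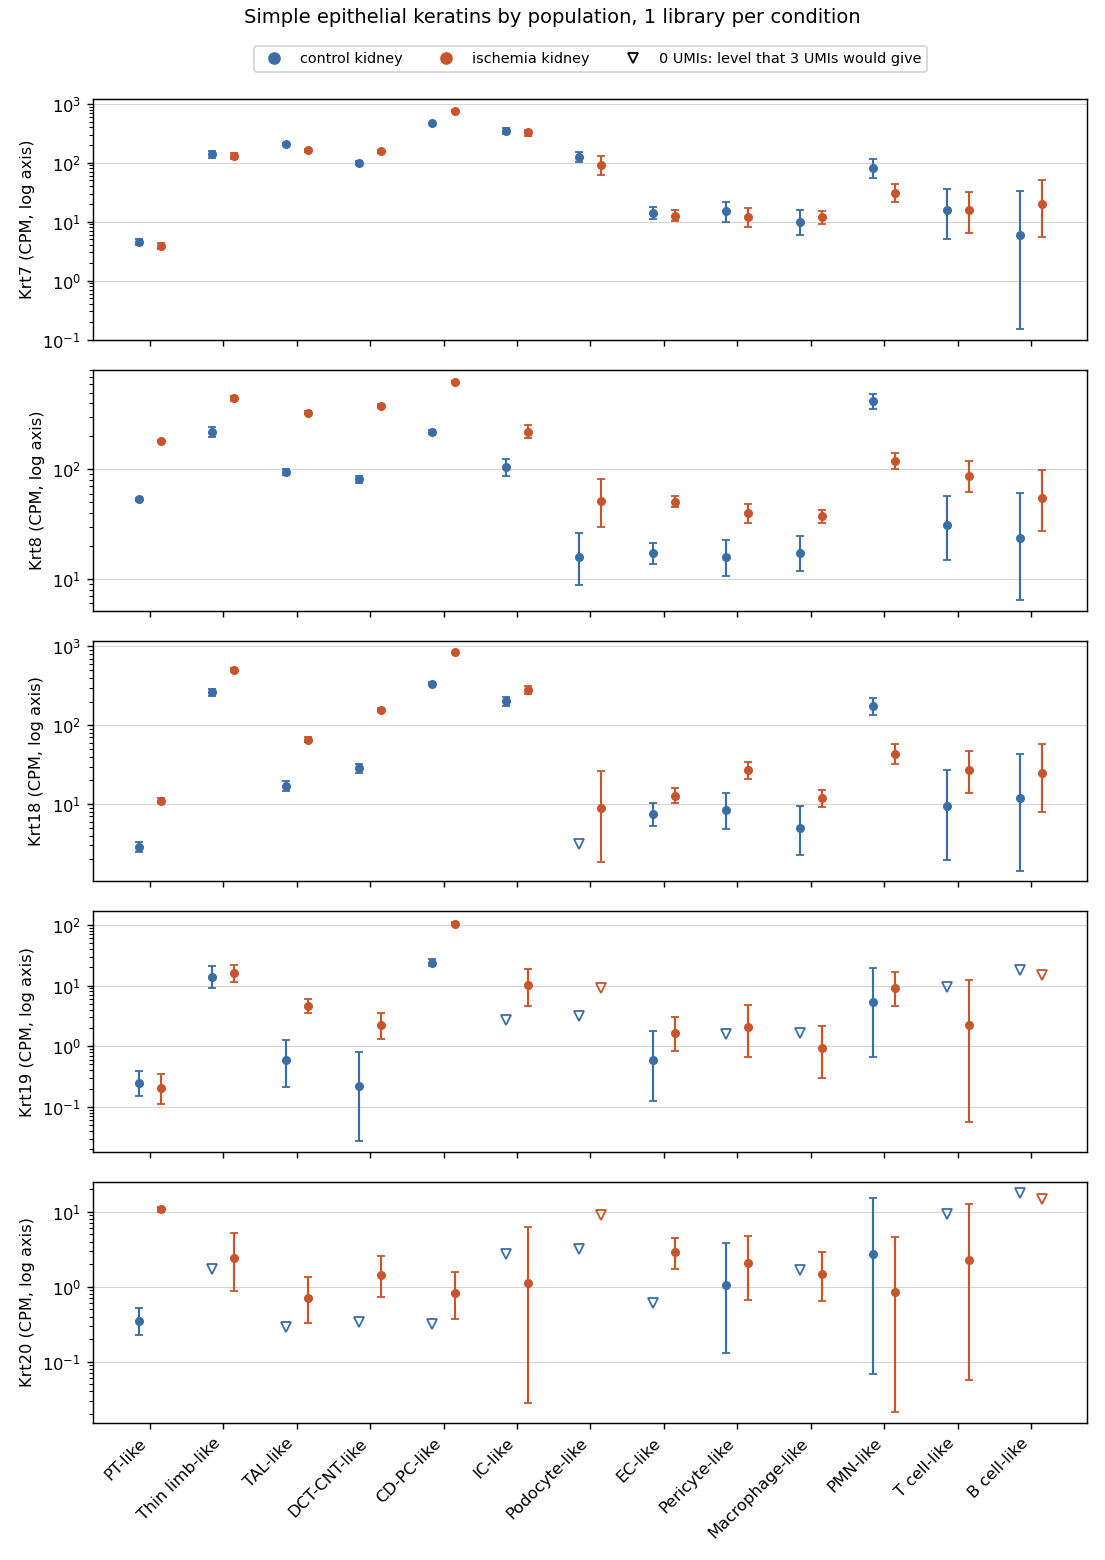
Level of each keratin (y axes, CPM on a log scale) in the 13 named populations (x axis) of the control (blue) and ischemia (orange) kidneys, 1 library each, with 95% counting intervals. Open triangles mark populations with 0 UMIs, at the level that 3 UMIs would give. Krt8 was higher in the I/R library in every population but the PMN-like one, and of the populations with Krt20 UMIs the PT-like one of the I/R library stood highest, at 10.8 CPM.

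**Figure D2:**
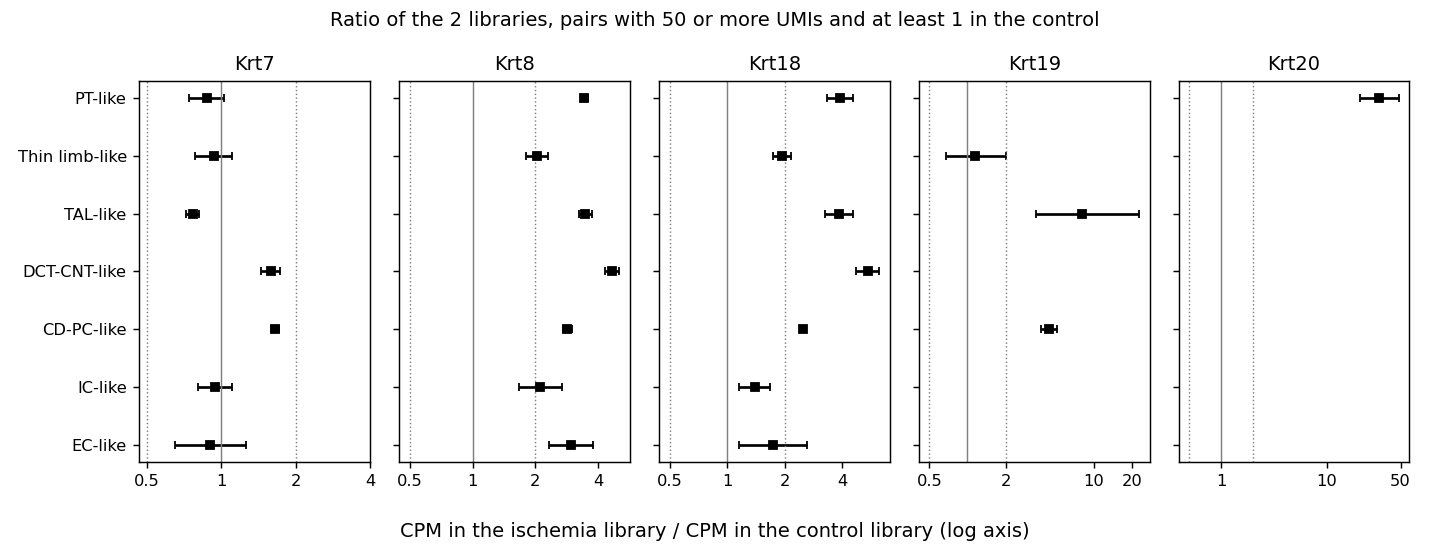
Ratio of ischemia to control CPM (x axes, log scale) for each keratin in 7 populations, with 95% counting intervals. The solid line marks a ratio of 1 and the dotted lines ratios of 0.5 and 2. Pairs with fewer than 50 UMIs or with 0 control UMIs have no point. Krt7 stayed under a ratio of 2 in all 7 populations, and Krt8 lay above 2 in all 7.

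Krt7, the type II keratin of ducts, followed the collecting system and was not called higher in any population. In the control library its level was 465 CPM in CD-PC-like, 346 in IC-like and 211 in TAL-like cells, each apart from the next beyond counting error. Among IC-like cells, 5 held 30.2% of the control and 44.9% of the ischemia Krt7 UMIs of that population. The thin limb (139 CPM), podocyte-like cells (125) and DCT-CNT-like cells (99.2) came next, with neighbours in this order that overlapped. PT-like cells, at 4.48 CPM, lay below the EC-like level of 14.0 CPM, so their Krt7 was read as background.

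In the I/R library Krt7 stood at 766 CPM in CD-PC-like cells, a ratio of 1.65 (1.59–1.71). DCT-CNT-like cells went from 99.2 to 157 CPM, a ratio of 1.58 (1.45–1.73). TAL-like cells went the other way, from 211 to 162 CPM, a ratio of 0.766 (0.721–0.814). The intervals of the CD-PC-like and TAL-like ratios do not overlap and lie on either side of 1. The interval of the Krt7 ratio included 1 in IC-like cells (0.942, 0.806–1.10) and the thin limb (0.933, 0.786–1.11). It also did in podocyte-like (0.741, 0.482–1.11) and EC-like cells (0.902, 0.648–1.26). The PMN-like cluster, described below, had a ratio of 0.380 (0.228–0.637). Unnamed clusters 0 and 4 had ratios of 1.24 (1.07–1.43) and 1.35 (1.23–1.49). CD-PC-like cells held 43.9% of all Krt7 UMIs of the control library and 59.7% of those of the I/R library, while the share of TAL-like cells went from 21.9% to 14.5%. The direction in CD-PC-like cells held among cells with at most 25% mitochondrial UMIs, at 545 against 841 CPM, but not above that limit. Cells with 25 to 40% had 293 against 257 CPM (ratio 0.877, 0.756–1.01), and cells with over 40% had 173 against 163 CPM (0.941, 0.666–1.32). In TAL-like cells all 3 classes had a ratio below 1, from 0.644 to 0.769. The TAL-like ratio was below 1 in 12 of 13 alternatives and 1.04 (0.768–1.38) without integration, where the cluster held 12 ischemia cells.

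Krt8, the basic type II keratin, was present in every tubule population and was called higher in all of them. In the control library the CD-PC-like level of 219.8 CPM and the thin limb level of 219 CPM overlapped. The thin limb level rested on few of its 88 cells, as 5 held 39.4% of its Krt8 UMIs, 43.1% of its Krt18 and 42.7% of its Krt7 UMIs. IC-like (104 CPM) and TAL-like cells (94.3 CPM) also overlapped, and DCT-CNT-like (81.2 CPM) and PT-like cells (53.2 CPM) followed. Of the Krt8 UMIs of IC-like cells, 5 cells held 40% in the control and 41.4% in the I/R library. In the I/R kidney every step in the order was apart beyond counting error, from CD-PC-like (625.5 CPM) through the thin limb (444), DCT-CNT-like (379), TAL-like (327) and IC-like (221) to PT-like cells (182.5). DCT-CNT-like and TAL-like cells thus stood above IC-like cells, which they did not in the control library.

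The Krt8 ratio was highest in DCT-CNT-like cells, at 4.66 (4.30–5.06). TAL-like cells followed at 3.47 (3.24–3.73) and PT-like cells at 3.43 (3.31–3.56), and these intervals overlapped. CD-PC-like cells had 2.85 (2.71–2.99), IC-like cells 2.12 (1.67–2.69) and the thin limb 2.03 (1.80–2.29). The 3 tubule populations with the most Krt8 in the control library thus had the smallest ratios over all UMIs. Thinning to 1000 UMIs gave 3.51 in CD-PC-like cells, 1.29 in IC-like cells and 3.73 in the thin limb, and this order was not kept. PT-like cells, although the lowest in level, held 41.0% of the Krt8 UMIs of the control library and 39.7% of those of the I/R library, being the most numerous of the named populations.

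Krt8 UMIs were also found in cells that should lack keratins. EC-like cells went from 17.2 to 50.9 CPM, 32.4% and 27.9% of the PT-like level, a ratio of 2.96 (2.33–3.79). Macrophage-like cells had 17.3 and 37.3 CPM and pericyte-like cells 16.0 and 39.9 CPM. With each cell thinned to 1000 UMIs, the share of PT-like cells with a Krt8 UMI was 5.46% in the control and 14.2% in the I/R library, against 2.49% and 5.79% of EC-like cells. Unthinned, at median depths of 14087 and 18180 UMIs, 45.4% and 71.2% of PT-like cells had one, against 7.95% and 20.4% of EC-like cells at 3797.5 and 4243.5 UMIs. The PT-like share was above the EC-like one in both libraries by more than counting error. Thinned shares elsewhere went from 5.87% to 21.9% in TAL-like, from 5.48% to 20.9% in DCT-CNT-like and from 13.2% to 32.3% in CD-PC-like cells. Thinning left out 132 control and 51 ischemia PT-like cells and 22 and 59 EC-like cells that were shallower.

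All 3 PT-like clusters took part. Their Krt8 levels went from 60.6 to 193 CPM, from 51.9 to 183 CPM and from 50.2 to 176.5 CPM, with ratios of 3.19, 3.53 and 3.51. Unnamed cluster 0 went from 69.9 to 248 CPM and unnamed cluster 4, which mixed markers of TAL and DCT, from 99.1 to 415 CPM. The Krt8 difference was therefore not confined to the named cells.

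In TAL-like cells the Krt8 ratio moved with the share of mitochondrial UMIs. Among those with at most 25% Krt8 went from 273 to 409 CPM, a ratio of 1.50 (1.36–1.65). Among those with 25 to 40% it went from 59.1 to 251 CPM, a ratio of 4.25 (3.80–4.76), and above 40% from 42.4 to 215 CPM, a ratio of 5.07 (3.78–6.83). Krt8 was thus high in the control TAL-like cells of low mitochondrial share, which numbered 125 of 495 in the control and 246 of 490 in the I/R library, and 5 control TAL-like cells held 35.4% of the Krt8 UMIs of their population. The part of the mitochondrial share in the TAL-like ratio was not tested. In the other populations the ratios varied less. They ran from 2.84 to 3.10 in PT-like, from 4.08 to 4.71 in DCT-CNT-like and from 2.25 to 2.63 in CD-PC-like cells. The Krt8 level nonetheless fell from the lowest to the highest class in each of these populations, in both libraries. In the control library it was 67.3, 44.2 and 27.5 CPM in PT-like and 267, 105 and 96.1 CPM in CD-PC-like cells. The lowest class held 2084 of 3887 control and 1905 of 2797 ischemia PT-like cells.

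**Figure D3:**
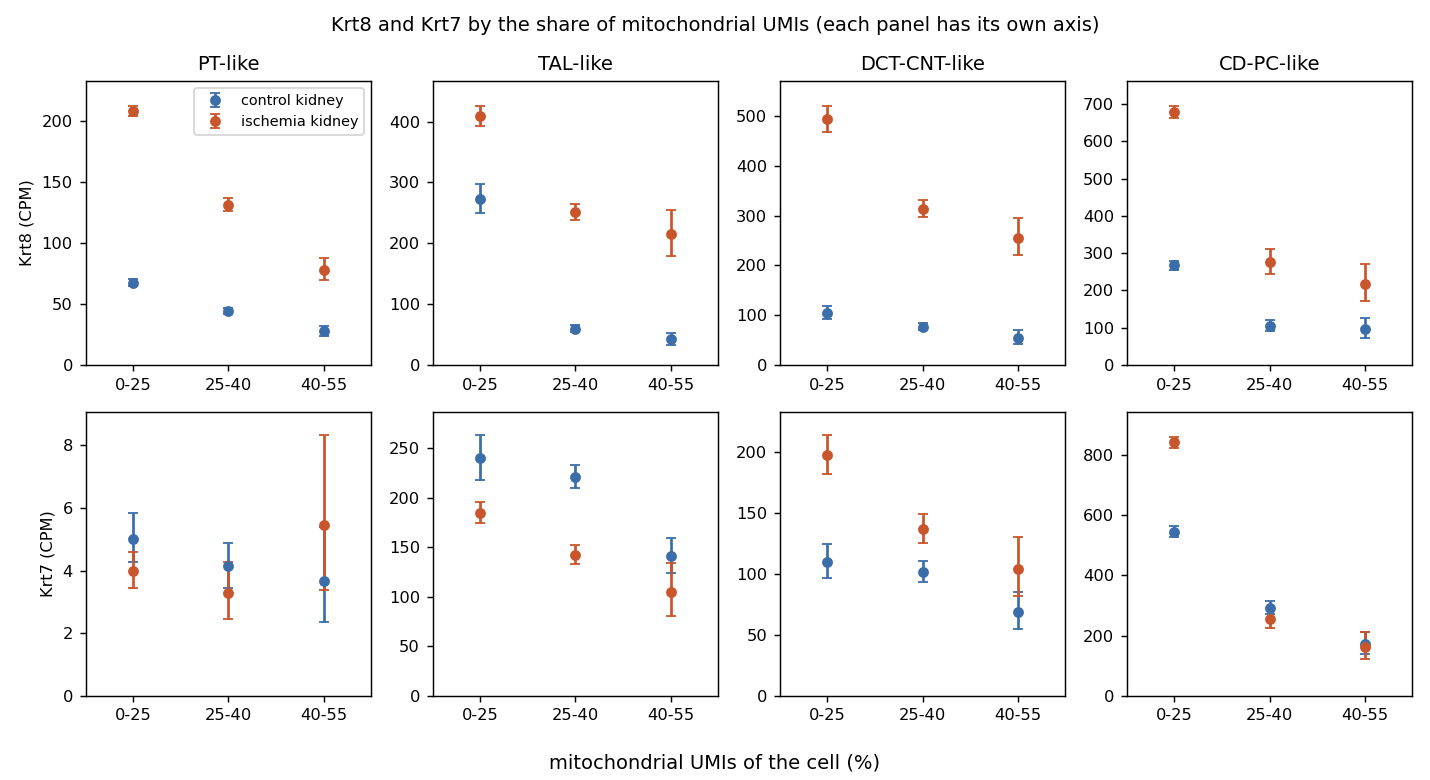
Level of Krt8 (top row) and Krt7 (bottom row) in CPM (y axes, each panel with its own scale) in cells split by their share of mitochondrial UMIs in percent (x axes), for the control (blue) and ischemia (orange) kidneys with 95% counting intervals. Krt8 was higher in the I/R library in every class, while its TAL-like ratio ran from 1.50 in the lowest class to 5.07 in the highest. In CD-PC-like cells Krt7 was higher in the I/R library in the lowest class only.

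Krt18, the type I partner of Krt8, was far more restricted. In both libraries CD-PC-like cells (338 and 842.5 CPM) stood above the thin limb (261 and 502) and IC-like cells (201 and 279), each apart from the next tubule level beyond counting error. The IC-like levels rested on few cells, as 5 held 48.9% of their control and 35.2% of their ischemia Krt18 UMIs. DCT-CNT-like (28.6 and 155 CPM) and TAL-like cells (17.0 and 65.4) followed, in an order that was read in the I/R library only. CD-PC-like cells held 64.2% of all Krt18 UMIs in the control and 62.6% in the I/R library.

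Krt18 was called higher in the distal populations where it started low, with a ratio of 5.43 (4.74–6.24) in DCT-CNT-like and 3.84 (3.26–4.55) in TAL-like cells. CD-PC-like cells had a ratio of 2.49 (2.39–2.59). That ratio was 2.23 (2.14–2.33) among cells with at most 25% mitochondrial UMIs. It was under the fold of 2 at 25 to 40% (1.905, 1.635–2.22) and over 40% (1.49, 0.961–2.32). The thin limb ratio of 1.93 (1.73–2.15) and the IC-like ratio of 1.39 (1.16–1.68) were under the fold of 2 and were not called. With cells thinned to 1000 UMIs the IC-like ratio was 0.644. Some thin limb cells carried markers of other epithelia. At least 3 UMIs of urothelial markers were found in 4 control cells. The mesothelial markers Msln, Upk3b, Lrrn4 and Muc16 reached 3 UMIs in 13 control and 9 ischemia cells. Over the control thin limb only 2 of 5 urothelial markers had a UMI. Of the 4 mesothelial markers, 1 had a UMI in the control and 3 in the I/R thin limb. These counts do not settle what the cells are. Without the cells with urothelial markers the thin limb ratio was 2.35 for Krt18, 2.24 for Krt8 and 1.26 for Krt7. The part of the cells with mesothelial markers, which had 465 CPM of Krt8 and 612 CPM of Krt18 over all control populations, was not tested. Thinned shares of cells with a Krt18 UMI went from 0.877% to 11.5% in DCT-CNT-like, from 0.202% to 3.68% in TAL-like and from 23.7% to 39.7% in CD-PC-like cells, against 1.02% and 1.42% in EC-like cells. Although the intervals of the TAL-like and EC-like shares overlapped, these shares were above the EC-like one in the I/R library. In the control library the DCT-CNT-like and TAL-like shares were not, although their CPM exceeded the EC-like 7.41 CPM, and no order between them was read there. As for Krt8, the TAL-like ratio was smaller among cells with at most 25% mitochondrial UMIs, at 1.56 (1.27–1.92), and 4.08 (3.08–5.48) at 25 to 40%. The TAL-like call also turned on few control cells, 5 of which held 49.1% of the 175 Krt18 UMIs. The ratio was 23.2 (3.77–957) with cells thinned to 1000 UMIs and 0.551 (0.0138–3.15) without integration.

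The level of Krt18 in PT-like cells was 2.87 CPM (control) and 11.1 CPM (I/R). The ratio of 3.87 (3.31–4.54), or 2.36 with cells thinned to 1000 UMIs, passed the call, yet both levels were below those of EC-like cells, at 7.41 and 12.8 CPM. The thinned shares, 0.559% and 1.31% in PT-like against 1.02% and 1.42% in EC-like cells, also did not exceed the EC-like ones. By this measure Krt18 in PT-like cells was read as background in the control library. Over all PT-like cells of the I/R library it was not told apart from the EC-like level. That level may lie above the free RNA of PT-like cells, which was not measured. Markers of CD-PC, which both populations should lack, summed to 48.8 and 21.3 CPM in PT-like and 120 and 53.3 CPM in EC-like cells. The part of free RNA in the PT-like Krt18 was not tested. Some PT-like cells of the I/R library did exceed the EC-like level. In the second PT-like cluster, cells with 10 or more Havcr1 UMIs had 30.45 CPM (27.0–34.2), against 12.8 CPM (10.2–15.8) in EC-like cells. A Krt18 UMI was found in 62 of these 196 PT-like cells. The same class had 7.96 CPM (4.24–13.6) in the first and 6.61 CPM (5.36–8.06) in the third cluster. It was the deeper class, and the part of depth was not tested.

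The pair was accordingly uneven along the tubule. For each Krt18 UMI there were 18.5 Krt8 UMIs in PT-like control cells and 16.4 in the I/R library. TAL-like cells had 5.54 and 5.01, DCT-CNT-like cells 2.84 and 2.44, and CD-PC-like cells 0.650 (0.615–0.687) and 0.743 (0.720–0.766). The thin limb had 0.839 and 0.885, and IC-like cells 0.520 and 0.792. Krt8 thus exceeded Krt18 in PT-like, TAL-like and DCT-CNT-like cells, in both libraries. It fell short of Krt18 in the thin limb, CD-PC-like and IC-like cells, in both libraries. EC-like cells had 2.32 and 3.98. The PT-like control ratio rests on Krt18 that was read as background above. The PT-like I/R ratio rests on Krt18 that was not told apart from the EC-like level. In the control library the thinned Krt18 shares of TAL-like and DCT-CNT-like cells were also not above the EC-like one.

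In CD-PC-like cells thinned to 1000 UMIs, Krt18 was found in 28 of 59 cells with a Krt8 UMI (47.5%, 34.3–60.9) and in 20.1% (16.2–24.4) of those without one in the control library. The I/R library gave 68 of 126 cells (54.0%) and 33.0%. DCT-CNT-like cells of the I/R library had Krt18 in 24.7% (15.3–36.1) of cells with and 7.97% (5.06–11.8) of cells without Krt8. Other sets did not show this. PT-like cells had Krt18 in 0.488% with and 0.563% without Krt8 in the control library. In the I/R library their intervals overlapped, at 2.56% (1.24–4.67) and 1.10% (0.722–1.61). In the control thin limb, Krt18 was found in 0 of 10 cells with and 12 of 78 cells without Krt8. Cells of 1 library share their background, and the CD-PC-like cluster holds more than 1 kind of cell, so these shares are a description.

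Krt19, a type I keratin of ducts, was found mostly in the CD-PC-like cluster, which held 76.3% of its control and 84.4% of its ischemia UMIs. Krt19 rested on 222 control and 1141 ischemia UMIs there, 23.8 and 104 CPM, a ratio of 4.39 (3.80–5.09). Of these control UMIs, 142 were in 1 cell with urothelial markers, so the control share turns on that cell. The thin limb had 14.0 and 16.2 CPM and a ratio of 1.16 (0.681–2.01). In IC-like cells there were 0 control and 9 ischemia UMIs, the latter 10.1 CPM and at least 3.69-fold higher than 3 control UMIs would give, with an exact lower limit of the ratio of 2.43. TAL-like cells had 6 and 59 UMIs, 0.584 and 4.68 CPM, with a ratio of 8.02 (3.47–22.7), and 5 cells held 79.7% of the ischemia UMIs. PT-like cells had 18 and 14 UMIs and were below EC-like cells (0.601 and 1.68 CPM).

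A few cells of another epithelium weighed heavily on Krt19. In the CD-PC-like cluster, 1 control and 4 ischemia cells had at least 3 UMIs of the urothelial markers Upk1a, Upk1b, Upk2, Upk3a and Psca. These cells held 142 of the 222 control and 433 of the 1141 ischemia Krt19 UMIs, at 1955 and 1703 CPM. In the whole libraries, 6 control and 4 ischemia cells reached this limit of marker UMIs and held 50.2% and 32.0% of the Krt19 UMIs. Of the 146 Krt19 UMIs in the 6 control cells, 142 were in the 1 CD-PC-like cell. Summed over the whole CD-PC-like cluster, all 5 markers were detected, at 13.2 CPM (control) and 11.98 CPM (I/R). Without these cells Krt19 in the CD-PC-like cluster went from 8.64 to 66.3 CPM. The control level was then no longer above that of the thin limb with all its cells, 14.0 CPM (8.94–20.8). The CD-PC-like ratio was 7.67 in place of 4.39. Leaving out the 5 cells with the most Krt19 UMIs in each library gave 10.9. Krt7, Krt8 and Krt18 moved little, to 452 and 750, 208 and 612.5, and 327 and 824 CPM.

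Without these cells the cluster was split by Aqp2, the water channel of principal cells. In cells with at least 3 Aqp2 UMIs (274 control and 218 ischemia), Krt19 went from 11.5 to 75.4 CPM and was detected in 39 control and 109 ischemia cells. In cells with 0 to 2 Aqp2 UMIs (174 and 169), it went from 0 UMIs to 44.2 CPM, with 138 UMIs in 22 ischemia cells. These classes are called with and without Aqp2 here, although the latter cells had up to 2 UMIs of it. The same split gave Krt7 at 526.5 and 897 CPM with Aqp2 and 223 and 393 CPM without. Krt18 had 403 and 986.5 CPM with and 93.8 and 430 CPM without. Krt8 was 248 and 711 CPM with Aqp2 and 87.2 and 373.5 CPM without. All 4 keratins were thus higher in cells with 3 or more Aqp2 UMIs in both libraries, and higher in the I/R library on both sides of the split. Deeper cells reach more Aqp2 UMIs, and the part of depth in this split was not tested. The cluster also holds intercalated cells, whose place in this split was not determined.

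**Figure D4:**
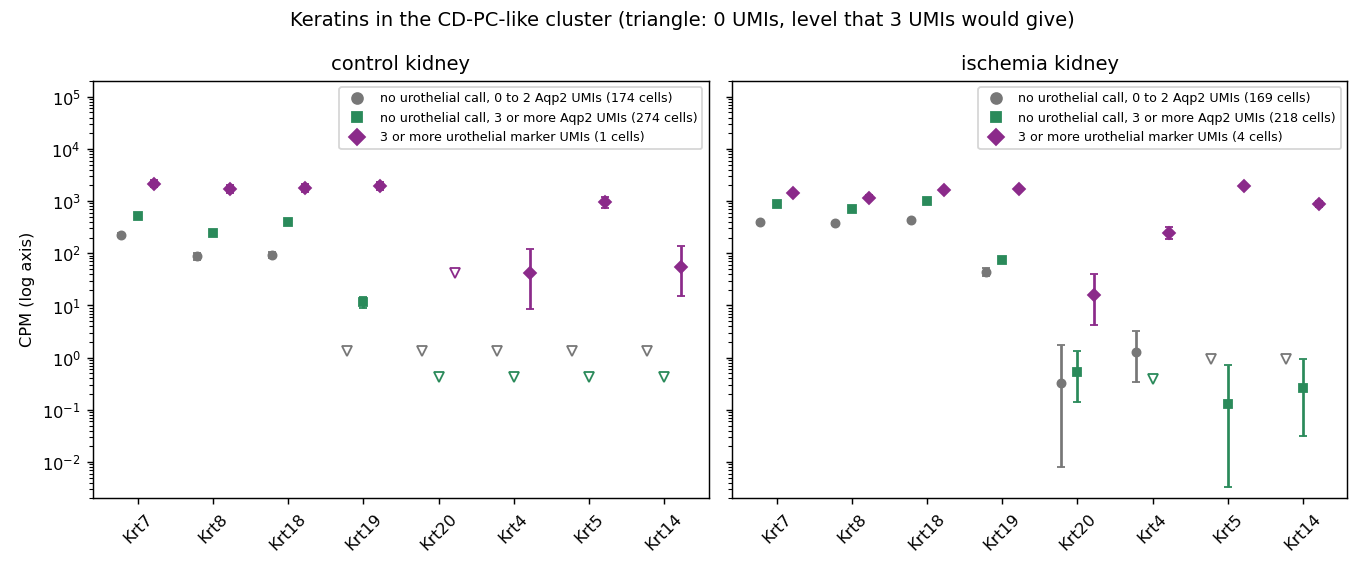
Keratin levels (y axis, CPM on a log scale, 95% counting intervals) in the CD-PC-like cluster of the control (left) and ischemia (right) kidneys, for cells with 0 to 2 Aqp2 UMIs (grey circles), 3 or more Aqp2 UMIs (green squares) and 3 or more urothelial marker UMIs (purple diamonds). Open triangles mark 0 UMIs, at the level that 3 UMIs would give. Krt5, Krt14 and Krt4 were near 0 in all but the 1 control and 4 ischemia cells with urothelial markers, whereas Krt19 was also found in cells with Aqp2.

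Krt20, the type I keratin known from intestine and urothelium, had the largest ratio of the 5 keratins over all cells kept (30.5) and the lowest level there, 0.225 and 6.84 CPM. PT-like cells had 25 UMIs in the control and 739 in the I/R library, 0.348 and 10.8 CPM, a ratio of 31.1 (20.9–48.4). Without the 5 cells of each library with the most Krt20 UMIs the ratio was 56.7. The PT-like cells together held 89.3% of all Krt20 UMIs in the control and 83.9% in the I/R library. PT-like cells of the I/R library stood apart from the next population, EC-like cells at 2.89 CPM, while in the control library no population stood apart from its neighbour.

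The 3 PT-like clusters are given apart. The first, with the fewest UMIs per cell, went from 0.750 to 6.68 CPM, a ratio of 8.91 (4.69–18.6). Its control level rested on 11 UMIs in 3 cells, with 10 of them in 2 cells, so the lower ratio of this cluster turns on those cells. The second went from 0.415 to 9.97 CPM, a ratio of 24.0 (14.1–44.4). The third, the deepest, had 0 UMIs in the control and 324 in the I/R library, 14.0 CPM and at least 109-fold higher than 3 control UMIs would give, with an exact lower limit of the ratio of 88.45. Unnamed cluster 0 likewise had 0 control and 67 ischemia UMIs, 11.7 CPM and at least 22.8-fold higher, with a lower limit of 18.0. The other tubule populations had 0 control UMIs and 1 to 11 ischemia UMIs each.

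Krt20 in the other populations was set beside Havcr1, which EC-like cells should also lack. EC-like cells of the I/R library had 25.1% of the PT-like level of Havcr1, 26.8% of that of Krt20 and 27.9% of that of Krt8. Macrophage-like cells had 14.7%, 13.7% and 20.4%, and pericyte-like cells 13.3%, 19.0% and 21.9%. Krt18 did not follow, with 115% in EC-like, 106.5% in macrophage-like and 241.1% in pericyte-like cells. Thinned to 1000 UMIs, 0.910% (0.590–1.34) of PT-like and 0.508% (0.165–1.18) of EC-like cells of the I/R library had a Krt20 UMI, shares whose intervals overlap. Unthinned, 0.386% of control and 9.40% of ischemia PT-like cells had one, against 1.05% of the shallower EC-like cells of the I/R library and 0 of 906 in the control, where a share of up to 0.331% would be missed. The CPM of PT-like cells lay above that of EC-like cells beyond counting error, whereas the thinned share of cells could not show this at 1000 UMIs.

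Within PT-like cells the keratins were compared across classes of Havcr1, a gene outside the family. Such classes are ranges of a count and not cell types, and deeper cells reach more Havcr1 UMIs. Of the I/R cells, 896 had 0, 1312 had 1 to 9 and 589 had 10 or more Havcr1 UMIs, at median depths of 8228.5, 14717.5 and 44824 UMIs. Krt20 was 3.85 (2.88–5.04), 5.32 (4.51–6.23) and 20.8 CPM (19.1–22.65) across these classes, and the lower classes overlapped. The highest class was 5.40 times the lowest, whose interval also overlapped that of EC-like cells (2.89 CPM, 1.74–4.52). Krt8 was 121, 152 and 250.5 CPM, and the highest class was 2.07 times the lowest. Krt18 was 8.14 (6.70–9.79), 8.77 (7.72–9.92) and 15.3 CPM (13.85–16.9), and its lower classes overlapped. In the first PT-like cluster Krt18 was 12.8, 13.3 and 7.96 CPM and did not rise. From the lowest to the highest class it went from 7.39 to 30.45 CPM in the second and from 1.83 to 6.61 CPM in the third cluster. Krt7 showed no such order at 5.59, 3.18 and 3.83 CPM. With cells thinned to 1000 UMIs, cells without a Havcr1 UMI had 7.19 CPM of Krt20 and 152 of Krt8. Thinned cells with at least 1 had 25.8 and 253 CPM. Krt18 was 12.9 CPM (8.53–18.8) in thinned cells without and 16.7 CPM (8.33–29.9) in those with a Havcr1 UMI, and these intervals overlap.

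The control kidney held 171 PT-like cells with 1 to 9 and 11 with 10 or more Havcr1 UMIs, against 3705 without. Krt8 was 52.7, 59.0 and 67.1 CPM from the lowest to the highest class, with intervals that overlapped. Krt20 was 0.164, 2.89 and 3.73 CPM, the second from 13 UMIs in 4 cells, 2 of which held 10, and the last from 1 UMI, so no order was read from these. Thus PT-like ischemia cells without a Havcr1 UMI, at 121 CPM of Krt8, still lay above the control cells of every class.

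**Figure D5:**
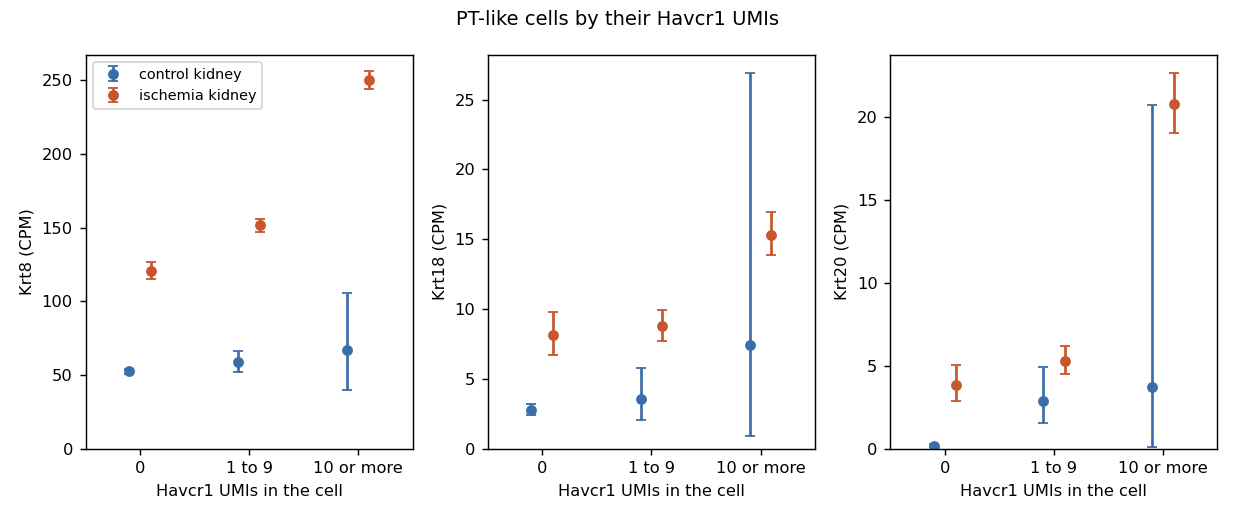
Level of Krt8, Krt18 and Krt20 (y axes, CPM from 0, 95% counting intervals) in PT-like cells split by their Havcr1 UMIs (x axes) in the control (blue) and ischemia (orange) kidneys. In the I/R library Krt20 was 3.85, 5.32 and 20.8 CPM from the lowest to the highest class and Krt8 was 121, 152 and 250.5 CPM. The highest control class rests on 11 cells.

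The PMN-like (neutrophil) cluster was the exception to these directions. Its Krt8 went from 417 to 119.9 CPM, and Krt7, Krt8 and Krt18 (3 of 3 tested) were called lower with ratios of 0.380, 0.288 and 0.250, where 8.92% of genes were. This rested on few cells: 5 cells held 96.7% of the 153 control Krt8 UMIs. The 14 control and 18 ischemia cells that left the cluster at a clustering resolution of 0.6 had 615 and 239 CPM of Krt8, and the 19 and 189 cells that stayed had 16.4 CPM (2 UMIs) and 72.6 CPM. The keratin of this cluster was therefore not read as that of neutrophils.

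Across the 13 named populations in both libraries (26 points, which share 2 libraries and their background), Krt8 and Krt18 had a Pearson correlation of log2(CPM + 10) of 0.859. Krt18 and Krt19 had 0.796, and Krt7 and Krt18 had 0.766. Krt20 had lower values, with -0.29 against Krt7, 0.295 against Krt8 and 0.00893 against Krt18. It reached 10.8 CPM in PT-like cells of the I/R library and no more than 2.89 CPM in any other point. With 10 added to each CPM, its correlations, also those with the genes named below, rest largely on that 1 point. Among 14315 genes, those most like Krt7 were Dsp (0.906), which encodes the desmosomal linker desmoplakin, Mal2 (0.889), Dsg2 (0.883), a desmosomal cadherin, Casz1 and Smim6. Those most like Krt8 were F2rl1 (0.880), the protease-activated receptor PAR2, Wwc1, Lad1, Mapk13 and Krt18. For Krt18 they included Naaladl2 (0.932), Gpr39, Cldn3, a claudin of tight junctions, and Gm43305. For Krt19 they were Efna4 (0.930), Rgn, Tmem158, Gcnt4 and Clca3a2, and for Krt20 Tmem145 (0.833), 2010003K11Rik, Gsta1, Card14 and Syt12. Krt19 stood at 23.8 and 104 CPM in CD-PC-like cells and at no more than 16.2 CPM in any other point. Few cells with urothelial markers weighed on both of these CD-PC-like points, and their part in the Krt19 correlations was not tested.

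Of 18 other keratins, few reached 50 UMIs in a tubule population. In CD-PC-like cells 7 did, with a median log2 ratio of 0.12 against -0.01 for all genes. Krt5 (7.39 to 44.6 CPM, ratio 6.04), Krt14 (4 to 222 UMIs, 47.4) and Krt4 (3 to 67 UMIs, 19.1, 6.25–94.7), which mark stratified epithelium, were called higher, and Krt80 (25.7 to 11.9 CPM, 0.462) was called lower. That made 3 of 7 higher and 1 of 7 lower, where 5.77% and 4.47% of all genes tested were. The cells with urothelial markers held 69 of 69 control and 487 of 488 ischemia Krt5 UMIs, 4 of 4 and 220 of 222 Krt14 UMIs, and 3 of 3 and 63 of 67 Krt4 UMIs. Krt15 (ratio 0.777), Krt10 (1.06) and Krt23 (1.09) were not called. In PT-like cells Krt15 had 51 control UMIs and 1 ischemia UMI and was called lower, a ratio of 0.0206 (0.000512–0.120). It was 1 of 3 tested there, where 3.83% of all genes tested were called lower. Krt222 (0.851) and Krt10 (1.16) were not called. Krt10 was the only other keratin tested in DCT-CNT-like (0.851) and TAL-like cells (0.917).

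Keratin filaments are anchored at desmosomes and hemidesmosomes, and 19 genes of these structures were followed. In TAL-like cells 5 of 13 were called higher, against 7.86% of all genes tested, at a median log2 ratio of 0.88. These were Itgb4 (ratio 5.86), the hemidesmosomal integrin, Ppl (2.75), Pkp3 (2.55), Plec (2.36), the linker plectin, and Dsp (2.01). PT-like cells had 3 of 13 against 6.99%, at a median of 0.51, with Ppl (13.1), Plec (2.23) and Itgb4 (2.10, from 17 to 34 UMIs). DCT-CNT-like cells had 3 of 10 against 6.42%, at a median of 0.65, with Plec (3.61), Dsp (2.73) and Pkp2 (2.35). In CD-PC-like cells 0 of 14 were called, against 5.77%, at a median of 0.11, with Pkp3 (1.58), Itga6 (1.55) and Itgb4 (1.38) the highest. None of the list was called lower in these populations, where 3.83% (PT-like) to 7.53% (TAL-like) of all genes were. The lowest ratios were those of Dst (0.544) in TAL-like, Evpl in PT-like (0.701) and CD-PC-like (0.608) and Pkp4 (0.636) in DCT-CNT-like cells.

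Of 13 other intermediate filament genes, Vim, the vimentin of mesenchymal and injured cells, was called higher in PT-like (1.63 to 15.9 CPM, ratio 9.77) and CD-PC-like cells (2.04 to 5.94 CPM, 2.92). It was also called higher in cells that hold far more of it, from 537 to 1126 CPM in EC-like and from 238 to 1030 CPM in macrophage-like cells, and the part of their free RNA in the tubule values was not tested. The lamins Lmna (2.22) in PT-like, Lmnb1 (2.25) in CD-PC-like and Lmnb2 (2.30) in DCT-CNT-like cells and the neurofilament gene Nefm (9.85) in TAL-like cells were also called. That made 2 of 5 genes tested in PT-like, 1 of 4 in TAL-like, 1 of 3 in DCT-CNT-like and 2 of 5 in CD-PC-like cells, with 0 called lower. Of all genes tested there, 6.99%, 7.86%, 6.42% and 5.77% were called higher and 3.83%, 7.53%, 4.98% and 4.47% lower. The median log2 ratios of the list were 0.68, 0.91, 0.67 and 0.81. Beside them Lcn2, the injury gene that encodes NGAL, went from 424 to 5283 CPM in TAL-like, from 60.4 to 2868 CPM in DCT-CNT-like and from 835 to 5345 CPM in CD-PC-like cells.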

How the data were processed

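scRNAseq was measured in 1 control and 1 ischemic kidney. The authors deposited raw UMI counts per gene and barcode, made with Cell Ranger 7.0.0 on mm10 per the labels, not normalized and before any filter on mitochondrial UMIs. Nothing in the labels ties libraries to further animals, and 1 library per group gives no replicates. Barcodes were kept from 200 genes and 500 UMIs upwards, up to 150000 UMIs and up to 55% mitochondrial UMIs. Seurat 5.3.0 in R 4.3.3 was run with a scale factor of 10000, 2000 variable genes without keratins, anchor-based integration, 30 principal components, resolution 0.3 and seed 42. A cluster was scored for each marker list by the mean log2 ratio of its CPM (pseudocount 10) to the median of clusters and took the best list if at least 3 markers had 10 UMIs or more and the 10 leading genes held more markers of that list than of any other. Injured PT was counted as PT.

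Sums of UMIs were scaled to CPM with exact Poisson intervals, shares have Clopper-Pearson intervals, and ratios have exact intervals for 2 Poisson counts, all at 95% and for counting error only. Where no UMI was counted, 3 UMIs served as the limit. Sums, intervals and figures were made in Python 3.11.15 (scipy 1.17.1, numpy 2.4.6, matplotlib 3.10.9, pandas 2.3.3). The ratio intervals were run on counts simulated from the same Poisson law that they assume, without clumping of UMIs in single cells. That run checks the calculation and cannot show how the intervals hold in these data. Scrublet in scanpy 1.11.5 marked 0 cells in either library, so doublets were not removed.

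The genes named were the 5 keratins, Havcr1 and Lcn2, for each keratin the 5 genes with the highest correlation over populations among genes with at least 200 UMIs, any other keratin with 200 UMIs, and up to 3 of the highest and 3 of the lowest ratios of each list (other keratins, desmosome and hemidesmosome, other intermediate filaments). A gene that this rule selects for Krt18 is not reported here. The keratins and the lists were chosen with earlier results of these data known. Details of the naming of clusters, the classes of Havcr1, Aqp2 and mitochondrial UMIs and 3 of 13 alternatives were set after the data were seen. The alternatives changed the limits on cells, the clustering, the naming, the weight and depth of cells, the background, the cells left out and the denominator. The flow cytometry, RT-PCR and culture experiments of the study were not analysed here.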

Additional observations from a re-analysis of the deposited data

Results flagged for a closer look

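The keratins differed in direction between populations under the same contrast, a difference that was not tested because each condition is 1 library. Krt7 had its highest ratio of ischemia to control CPM in CD-PC-like cells, at 1.646, and ratios with intervals below 1 in TAL-like (0.7661) and PMN-like cells (0.3798). Krt8 had its highest ratio in DCT-CNT-like cells (4.662) and one below 1 in PMN-like cells (0.2878), and Krt18 likewise (5.427 and 0.2502). The PMN-like values rested on few cells, as given above, and their part in the result was not tested.

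Barcodes that the filters removed also held keratin. The 4 ischemia barcodes with over 150000 UMIs had 1473.8 CPM of Krt7, 999.5 of Krt8, 1614.9 of Krt18 and 408.9 of Krt19, and no control barcode exceeded that limit. The other 2137 removed ischemia barcodes had 59.43 CPM of Krt8, 17.24 of Krt18 and 4.383 of Krt20, against 19.1, 6.61 and 0 CPM in the 2524 removed control barcodes. These differences were not tested.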

How the results depend on the processing

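Krt8 (2.777 to 3.663), Krt18 (2.362 to 4.55) and Krt20 (21.88 to 56.69) in PT-like cells, Krt8 in TAL-like cells (1.497 to 4.082) and Krt7 (1.522 to 1.886) and Krt19 (3.582 to 10.94) in CD-PC-like cells kept a ratio above 1 in every alternative that gave a value. The cause of the moves below was not tested. With at most 25% mitochondrial UMIs, the ratios were 3.097 for Krt8 in PT-like, 1.497 for Krt8 in TAL-like, 1.545 for Krt7 and 3.582 for Krt19 in CD-PC-like cells. Without integration Krt18 in PT-like cells was 4.55 and Krt8 in TAL-like cells 1.499, where the TAL-like cluster held only 12 ischemia cells, and Krt18 in TAL-like cells turned to 0.5514. No CD-PC-like cluster was named there, and 5 of 14 pairs of member and tubule population were called higher against 12 of 19. The gate on marker UMIs gave 3.152 for Krt8 and 2.708 for Krt18 in PT-like, 4.082 for Krt8 in TAL-like, 1.886 for Krt7 and 7.347 for Krt19 in CD-PC-like cells. Averaging the CPM of single cells gave 2.777, 2.682, 4.023, 1.569 and 7.643 for the same 5 ratios, and thinning to 1000 UMIs 2.968, 2.362, 3.877, 1.584 and 6.072. Subtracting the EC-like level gave 3.663 for Krt8 in PT-like cells and no value for Krt18 there. Without the 5 cells with the most UMIs, Krt20 in PT-like cells was 56.69, Krt8 in TAL-like cells 4.082, Krt19 in CD-PC-like cells 10.94 and the ratio of Krt20 between the Havcr1 classes 7.663. Without cells with urothelial markers Krt19 in CD-PC-like cells was 7.672. Scaled to UMIs other than mitochondrial ones, Krt8 was 3.256 in PT-like and 3.183 in TAL-like cells and Krt7 1.522 in CD-PC-like cells.

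The PMN-like ratios reversed for Krt8 and Krt18 without integration (4.325 and 1.73) and at resolution 0.6 (4.413 and 1.85), and with the gate for Krt7 (12.18), Krt8 (5.95) and Krt18 (4.935). Krt18 in pericyte-like cells reversed under thinning (0.8481). Of all ratios under all alternatives, 370 stayed within the counting interval of the reported ratio, 99 left it and 9 reversed. Only ratios called in the reported setting could count as reversed, so uncalled ratios that crossed 1 are among the 370 and 99. Krt7 in pericyte-like and Krt19 in PT-like cells, both uncalled, each kept their side of 1 in only 8 of 12 alternatives. No paired analysis was possible because each condition is 1 library. Leaving out doublets called by Scrublet was not run, as it called 0 cells. Depth limits Krt20 and Krt19 outside PT-like and CD-PC-like cells, which had at most 59 UMIs in either library in each other named population.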
